A study of Mus musculus with 6 samples.

Results

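The acute phase plasma proteins outside the serum amyloid A family were followed in mouse liver RNA through 10 genes: Orm1, Orm2, Hp, Hpx, Apcs, Lcn2, Itih3, Itih4, Lbp and Cd14. The members were all probe sets to which the platform annotation gives exactly 1 of these symbols. The 10 genes are among 8251 with such a probe set, and the rule found 12 of the 12488 probe sets, with a pair each for Hpx and Lcn2 and 1 for every other gene. It left out 1 probe set that the annotation assigns to both Orm1 and Orm2. The RNA came from livers of the inbred C57BL/6 strain after 12 weeks on either a Western-style diet rich in fat or a low-fat diet. Each diet had 3 Affymetrix arrays, here named HF1 to HF3 and LF1 to LF3 by their replicate numbers. The keywords of the labels name LDL receptor deficiency, but no array is labelled with that genotype, and both diets share the C57BL/6 strain. Age, sex and pooling of the mice were not given in the sources used here, and p-values measure only the spread between these arrays, which may be technical.

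Acute phase proteins are secreted mainly by hepatocytes and change in the plasma after infection, injury or other inflammation. Interleukin-6 acting through STAT3, interleukin-1 acting through NF-kappaB, and C/EBP factors drive their genes. Haptoglobin (Hp) binds free haemoglobin and hemopexin (Hpx) binds free heme. The orosomucoids (Orm1, Orm2) are acid glycoproteins that carry small molecules, serum amyloid P (Apcs) is the main acute phase pentraxin of mice, and lipocalin 2 (Lcn2) withholds iron from bacteria by binding their siderophores. The heavy chains Itih3 and Itih4 belong to the inter-alpha-trypsin inhibitor family, whose members stabilise hyaluronan or circulate in plasma. Lipopolysaccharide-binding protein (Lbp) passes bacterial endotoxin to Cd14, a co-receptor that hands it to Toll-like receptor 4.

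One probe set of Lcn2 and those of Orm2 and Apcs varied most between arrays, and all 3 were highest on HF3. The other 9 probe sets had diet differences between -0.23 and 0.32 on the log2 scale. No member passed the test of the diets: 0 of 12 probe sets had an adjusted p under 0.05 in limma, and 2 had an unadjusted p under 0.05, one of Lcn2 and that of Itih4. Over all 8950 tested probe sets 0.827% passed the adjusted threshold and 9.07% the unadjusted one. All 12 members entered the test, and their median log2 fold change, high-fat minus low-fat, was 0.25, against 0.003 for all tested probe sets. A fold change above 0 was found in 10 of the 12, against 50.5% of all tested probe sets.

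Upstream sequence is shown for Orm2, Lcn2 and Apcs, the widely varying members. On Orm2, Apcs and Lcn2 (160564_at) the order from high to low was HF3, HF2, HF1. Hp, Lbp and Cd14 had this order too. RefSeq promoter sequence (build GRCm38.p6) was used for 6 of the 10 genes, which were Apcs, Lcn2, Orm2, Hpx, Itih4 and Itih3. Upstream sequence of Orm1, Hp, Lbp and Cd14 was not searched, so their motifs are not known here. The 250 bases before the annotated start are given 5′ to 3′ on the strand of the gene, and capitals mark matches to any of the motifs searched.
Orm2, chr4:63362199-63362448, plus strand: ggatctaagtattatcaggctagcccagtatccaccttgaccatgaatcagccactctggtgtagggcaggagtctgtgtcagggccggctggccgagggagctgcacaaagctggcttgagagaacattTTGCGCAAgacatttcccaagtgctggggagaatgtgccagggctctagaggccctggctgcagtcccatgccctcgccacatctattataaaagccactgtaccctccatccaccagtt
Lcn2, chr2:32387740-32387989, minus strand: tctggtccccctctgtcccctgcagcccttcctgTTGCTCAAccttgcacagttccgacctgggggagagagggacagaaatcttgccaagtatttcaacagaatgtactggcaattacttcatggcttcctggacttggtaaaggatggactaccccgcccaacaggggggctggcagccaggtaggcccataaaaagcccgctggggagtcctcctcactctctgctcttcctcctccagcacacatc
Apcs, chr1:172895055-172895304, minus strand: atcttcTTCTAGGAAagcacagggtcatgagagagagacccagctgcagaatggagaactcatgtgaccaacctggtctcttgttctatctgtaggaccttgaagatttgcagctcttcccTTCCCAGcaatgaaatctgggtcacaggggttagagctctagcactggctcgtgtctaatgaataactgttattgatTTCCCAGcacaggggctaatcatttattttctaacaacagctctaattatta

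The motifs were searched on both strands, and no matches in these 3 windows overlapped. Orm2 and Lcn2 each held 1 match to the C/EBP letters TTGCNNAA, TTGCGCAA at position -120 from the start of Orm2 and TTGCTCAA at position -216 from that of Lcn2. Those letters occurred in 9.56% of all 32851 mouse promoter windows of this length. Apcs held 1 match to the STAT letters TTCNNNGAA, found in 7.02% of all windows, and 2 matches to the type 2 acute phase element CTGGGAA, found in 9.1%. Of the genes that varied little, Hpx had 1 C/EBP match, Itih4 had 1 STAT match and Itih3 had none of the motifs. The NF-kappaB letters GGGNNTTTC, present in 3.72% of windows, occurred in none of the 6. A match is a string of letters, and binding was not measured here.

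The values are linear intensities, deposited at nearly the same trimmed mean on every array, and can be compared between arrays but not between probe sets. The 11 hepatocyte marker genes on the array, among them albumin and transthyretin, lay above the floor intensity of 68.9 on all 6 arrays. In such bulk RNA, fewer cells of a type and less RNA per cell cannot be told apart. Across the tested probe sets the log2 values of 2 arrays correlated with r from 0.937 to 0.962. Pooled deviations from the diet means were shared by the arrays numbered 3 (r = 0.31 over 8950 probe sets, which are not independent), so results are also given without them. The ratio of the 3′ to the 5′ Gapdh control was 0.89 on HF3 and 0.82 on LF3, and 1.04 to 1.23 on the others. The same ratio for the Actb control did not set these arrays apart. It was 1.79 on HF3 and 1.75 on LF3, within the 1.56 to 1.96 of the others. The part of RNA quality in the results was not tested.

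**Figure D1:**
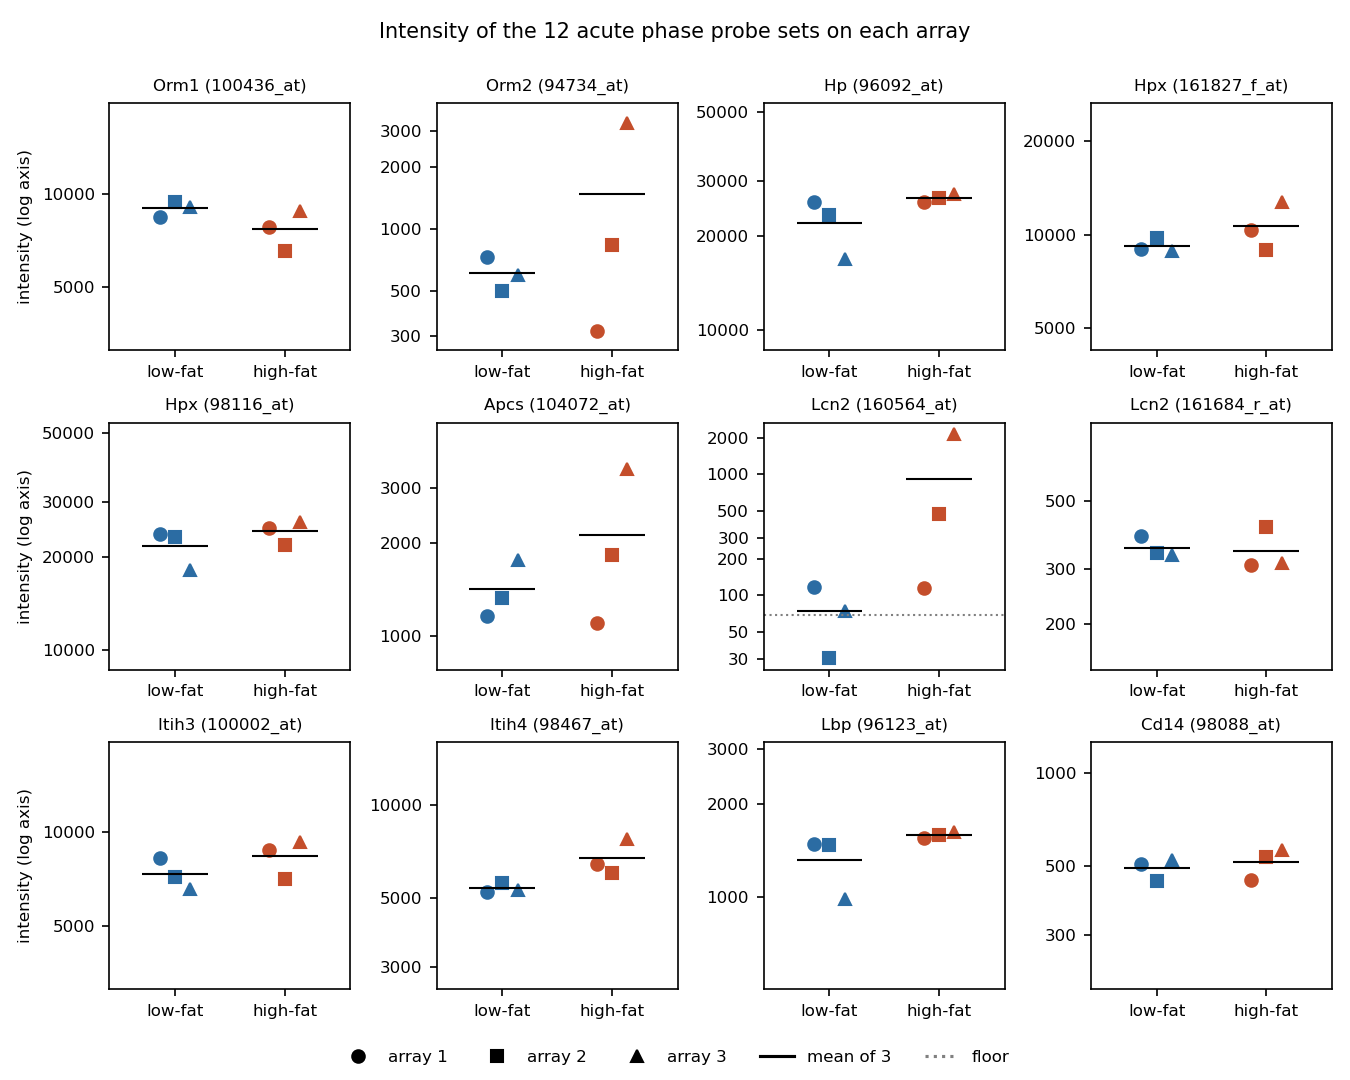
Intensity (log axis, a separate scale in each panel) of the 12 acute phase probe sets on the 3 low-fat and 3 high-fat arrays. Symbols mark the array number, bars the mean of 3 and the dotted line the floor of 68.9. Lcn2 (160564_at), Orm2 and Apcs spread over the high-fat arrays with HF3 at the top, while in the other panels the high-fat values lie closer together.

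Lcn2 was read by a pair of probe sets that differed from each other. On 160564_at its intensity was 115, 468 and 2127 on HF1, HF2 and HF3, and 118, 30.5 and 74.4 on LF1, LF2 and LF3. HF1 thus lay among the low-fat arrays, and the diets overlapped. HF3 was 18.1 times the highest low-fat array, and the high-fat arrays spanned 18.5-fold.

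The log2 fold change of this Lcn2 probe set was 2.52 ± 0.85 (SE, n = 3 per diet), a 5.75-fold ratio with a 95% interval from 1.52 to 21.8, an unadjusted p of 0.016 and an adjusted p of 0.381 (limma). LF2 was set to the floor, which lowers the fold. Without HF1 the log2 fold change was 3.56 with an adjusted p of 0.0406, the only one of the alternatives run in which a member passed. Without HF3 it was 1.46 with an adjusted p of 0.427. With quantile normalization, or with arrays scaled to a common median, the lowest high-fat array lay just above the highest low-fat one, at 123 against 116 and at 122 against 119.

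The other Lcn2 probe set, 161684_r_at, carries a suffix for relaxed probe selection. Its intensity was 310, 411 and 315 on HF1 to HF3 and 386, 339 and 333 on LF1 to LF3. No array stood apart on it, the diets overlapped and the log2 fold change was -0.04 ± 0.20 (SE, n = 3 per diet; adjusted p = 0.983).

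The orosomucoid genes are neighbours in RefSeq, in the order Orm1, Orm3, Orm2, and as close relatives in sequence they may share signal between probes. The probe set of Orm2 read 319.5, 833 and 3296 on HF1, HF2 and HF3 and 726, 501 and 594 on LF1, LF2 and LF3. The high-fat arrays therefore held both the lowest and the highest value of the 6, a 10.3-fold span against 1.45-fold on the low-fat diet. The log2 fold change was 0.67 ± 0.67 (SE, n = 3 per diet; adjusted p = 0.864), with a 95% interval of the ratio from 0.56 to 4.55. Its direction rested on 1 array, as the log2 fold change was -0.22 without HF3, and it was 1.47 without HF1.

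Orm1 stood at 7793, 6525 and 8809 on HF1 to HF3 and at 8415, 9368 and 9078 on LF1 to LF3. The values of HF1 and HF2 lay below all of the low-fat ones and that of HF3 among them. The log2 fold change was -0.23 ± 0.14 (SE, n = 3 per diet; adjusted p = 0.729), and it was below 0 in every alternative run, from -0.33 to -0.11. Orm1 and the flat Lcn2 set were the members with a fold change below 0. Orm3, an orosomucoid gene outside the group, read 261, 317 and 645 on HF1 to HF3 and 307.5, 144 and 287.5 on LF1 to LF3, again with HF3 highest (log2 fold change 0.69 ± 0.40, SE; adjusted p = 0.708).

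Apcs, a neighbour of the C-reactive protein gene Crp in RefSeq, read 1104, 1821 and 3449 on HF1, HF2 and HF3. On LF1, LF2 and LF3 it read 1164, 1326 and 1763. HF1 was the lowest of all 6 arrays and HF3 the highest, and the diets overlapped. The log2 fold change was 0.45 ± 0.35 (SE, n = 3 per diet; adjusted p = 0.809). It was 0.02 without HF3 and 0.84 without HF1. Crp itself had a log2 fold change of -0.59 ± 0.35 (SE; adjusted p = 0.713), chosen for mention after its value was seen.

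The haemoglobin and heme scavengers showed no wide spread. Hp read 25709, 26452 and 27256 on HF1, HF2 and HF3, a span of 1.06-fold, and 25684, 23408 and 16836 on LF1, LF2 and LF3. The diets were separated only by the narrow gap between 25709 and 25684, and they overlapped after quantile normalization. The log2 fold change was 0.29 ± 0.18 (SE, n = 3 per diet; adjusted p = 0.729). LF3 stood low, and without it the log2 fold change was 0.11.

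The Hpx probe set 98116_at read 24721, 21861 and 25872 on HF1 to HF3 and 23588, 23103 and 18087 on LF1 to LF3. The second, 161827_f_at, whose suffix marks probes shared within a gene family, read 10373, 8961 and 12737 against 8977, 9756 and 8846. Both had HF3 highest and LF3 lowest, and on both the diets overlapped. Their log2 fold changes were 0.17 ± 0.16 and 0.20 ± 0.15 (SE, n = 3 per diet), with adjusted p-values of 0.856 and 0.789. The first was 0.045 without LF3, and the other was 0.070 without HF3 and 0.32 without HF2. The 95% intervals of the ratio ran from 0.87 to 1.45 and from 0.91 to 1.46.

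The inter-alpha-trypsin inhibitor genes Itih4 and Itih3 lie side by side in RefSeq. Itih4 read 6457, 6008 and 7748 on HF1 to HF3 and 5233, 5586 and 5309 on LF1 to LF3, so that every high-fat array lay above every low-fat one. This separation held under quantile normalization and common-median scaling too. Its log2 fold change of 0.32 ± 0.13 (SE, n = 3 per diet) had an unadjusted p of 0.035 and an adjusted p of 0.492, with a 95% interval of the ratio from 1.02 to 1.52. Leaving out any single array gave between 0.21 and 0.40.

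Itih3 read 8753, 7054 and 9304 on HF1 to HF3 and 8284, 7197 and 6551 on LF1 to LF3, which overlapped (log2 fold change 0.19 ± 0.15, SE; adjusted p = 0.813). It was 0.10 without HF3, 0.11 without LF3 and 0.30 without HF2. Its neighbours in the family, Itih1 and Itih2, had log2 fold changes of -0.16 ± 0.15 and -0.33 ± 0.14 (SE), with adjusted p-values of 0.851 and 0.518, and were named after their values were seen.

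Of the endotoxin-handling pair, Lbp read 1550, 1586 and 1627 on HF1, HF2 and HF3, and 1481, 1477 and 984 on LF1, LF2 and LF3. The diets did not overlap, but LF3 made up most of the difference. The log2 fold change was 0.30 ± 0.17 (SE, n = 3 per diet; adjusted p = 0.697) with all arrays and 0.10 without LF3. Cd14 read 451, 535 and 564 on HF1 to HF3 and 507, 448 and 524 on LF1 to LF3. Those values were mixed between the diets (log2 fold change 0.06 ± 0.17, SE; adjusted p = 0.965), with a 95% interval of the ratio from 0.80 to 1.36. The list of the endotoxin receptor complex had 3 genes on the array, Lbp, Cd14 and the adaptor gene Tirap, and 0 passed in limma. Tirap had a log2 fold change of 0.26 ± 0.21 (SE; adjusted p = 0.813). None of the 3 had an unadjusted p under 0.05 either.

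**Figure D2:**
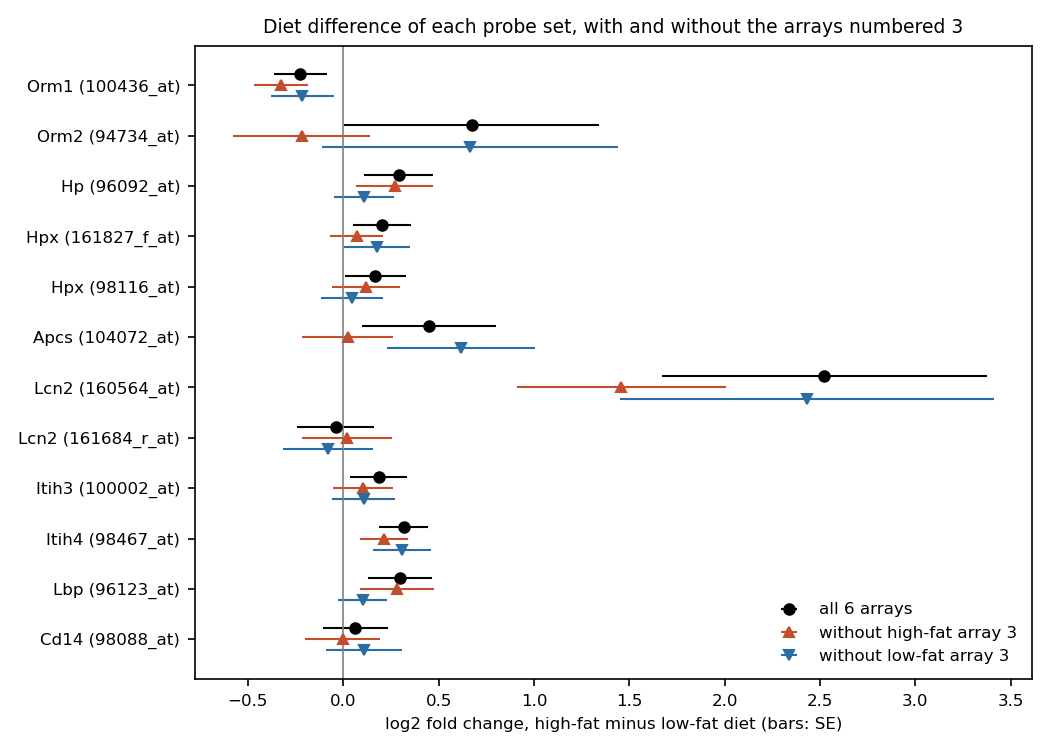
Log2 fold change (high-fat minus low-fat diet, bars SE) of each of the 12 acute phase probe sets with all 6 arrays, without HF3 and without LF3. Leaving out HF3 moves Orm2 from 0.67 to -0.22, Apcs from 0.45 to 0.02 and Lcn2 (160564_at) from 2.52 to 1.46, while leaving out LF3 moves Hp from 0.29 to 0.11 and Lbp from 0.30 to 0.10.

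In all, 3 of the 12 member probe sets, those of Hp, Itih4 and Lbp, had every high-fat array above every low-fat array, and 0 the reverse. Over all tested probe sets 7.34% lay so, and 6.76% lay the other way. The median log2 fold change of the members was 0.09 without HF3, 0.11 without LF3 and 0.04 without both.

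Within the high-fat diet HF3 led most members. It was the highest of its diet in 11 of 12 member probe sets, and the exception was the flat Lcn2 set. Over all tested probe sets HF3 was highest in 38.5%. HF1 was the highest in 0 of the 12. In 6 the order was 3, 2, 1 from high to low, and in 5 it was 3, 1, 2.

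For some members this order depended on the scaling. After quantile normalization HF3 was highest in 11 of 12 members, against 35.1% of all tested probe sets. After scaling to a common median it was highest in 7 of 12, against 31.3%. Hp, Hpx (98116_at), Itih3 and Lbp then had HF1 highest. Lcn2 (160564_at), Orm2, Apcs and also Cd14, which varied little, kept the order 3, 2, 1 under all of these scalings. LF3 was the lowest of its diet in 6 of 12 members, against 33.5% of all tested probe sets.

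The spread over the high-fat arrays divided the group. Apcs, Orm2 and Lcn2 (160564_at) ranged over 1.64, 3.37 and 4.21 log2 units on the high-fat diet, at least 1 unit in 3 of 12 members. Of all tested probe sets 14.2% reached 1 unit there, and 99.9% had a smaller range than Orm2. Hp and Lbp ranged over 0.08 and 0.07 log2 units, and 96.7% and 97.7% of tested probe sets had a larger range. On the low-fat diet 0 of the 12 members reached 1 unit, against 12.6% of all tested probe sets, and the widest was Lcn2 (160564_at) at 0.77, a value limited by the floor. The median range of the 12 was 0.40 for the high-fat diet and 0.36 for the low-fat diet, near the medians of all tested probe sets, 0.47 and 0.45. Whether the spread itself differed between the diets was not tested.

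**Figure D3:**
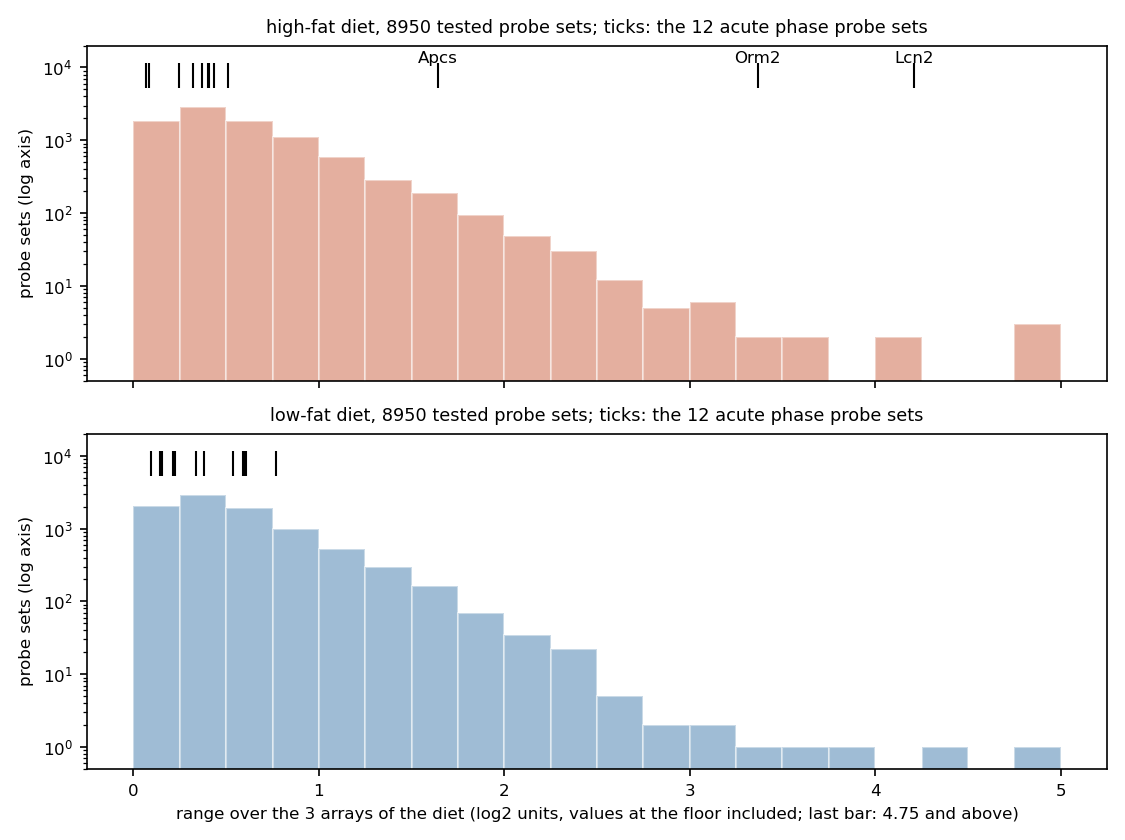
Range over the 3 arrays of a diet (log2 units) for the 8950 tested probe sets, as counts on a log axis, with ticks for the 12 acute phase probe sets. On the high-fat diet Apcs, Orm2 and Lcn2 lie at 1.64, 3.37 and 4.21 in the sparse right part, and the other members lie with the bulk. On the low-fat diet no member reaches 1 with values under the floor set to it. The low-fat range of Lcn2 (160564_at), 0.77, is limited by this, as LF2 read 30.5.

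The genes closest to a widely varying member were sought by the root mean square difference of log2 values, each centred on its own mean over the 6 arrays. The 3 tested genes nearest to Lcn2 (160564_at) were Saa2, Tubb3 and Anxa2, with differences of 0.78, 0.87 and 0.88 log2 units. Saa2 belongs to the serum amyloid A family. Its probe set is marked as shared within a gene family, so the signal may not be that of Saa2 alone. This probe set read 1484, 7542 and 9235 on HF1 to HF3 and 2330, 1589 and 1078 on LF1 to LF3. As with Lcn2, only HF2 and HF3 lay above the low-fat arrays. Saa3 read 455, 759 and 1179 against 319, 360 and 256, with HF1 lowest of its diet but above the low-fat arrays. The log2 fold changes of Saa2 and Saa3 were 1.57 ± 0.60 and 1.26 ± 0.32 (SE), with adjusted p-values of 0.465 and 0.180. Without HF1 the adjusted p-values were 0.0109 and 0.0371. Saa4, the other serum amyloid A gene measured, read 584, 476 and 1143 on HF1 to HF3 and 764, 864 and 1081 on LF1 to LF3, and its log2 fold change was -0.39 ± 0.30 (SE; adjusted p = 0.799).

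Tubb3, a beta-tubulin read by a probe set marked as shared within its family, rose on the high-fat diet with a log2 fold change of 2.28 (limma adjusted p = 0.0173). That call was lost without HF2, LF1 or LF2 (0.0736, 0.0795 and 0.0631), without the trend of the variance (0.0822) and without the filter (0.272). Anxa2, a membrane-binding annexin, read 848, 1482 and 2572 against 425, 516 and 264 (adjusted p = 0.0651). It passed without HF1 (0.0202), with the floor at the 50th percentile (0.0440) and with the filter on all 6 arrays (0.0463).

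Nearest to Orm2 were the monocyte chemokine gene Ccl2, the Y-linked histone demethylase gene Kdm5d and the macrophage elastase gene Mmp12, at 0.34, 0.42 and 0.45 log2 units. Ccl2 read 71.5, 107 and 370 on HF1 to HF3 and 119, 64.9 and 112 on LF1 to LF3, and Mmp12 read 99.9, 151 and 427 against 108, 93.6 and 72.7. Both were dim, with HF3 above the other 5 arrays. Nearest to Apcs were Clpx, Epop and Fabp7, at 0.17, 0.19 and 0.20 log2 units, all with intensities of 224 or less. With 6 arrays and 6557 genes to choose from, such likeness is a description of these arrays.

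**Figure D4:**
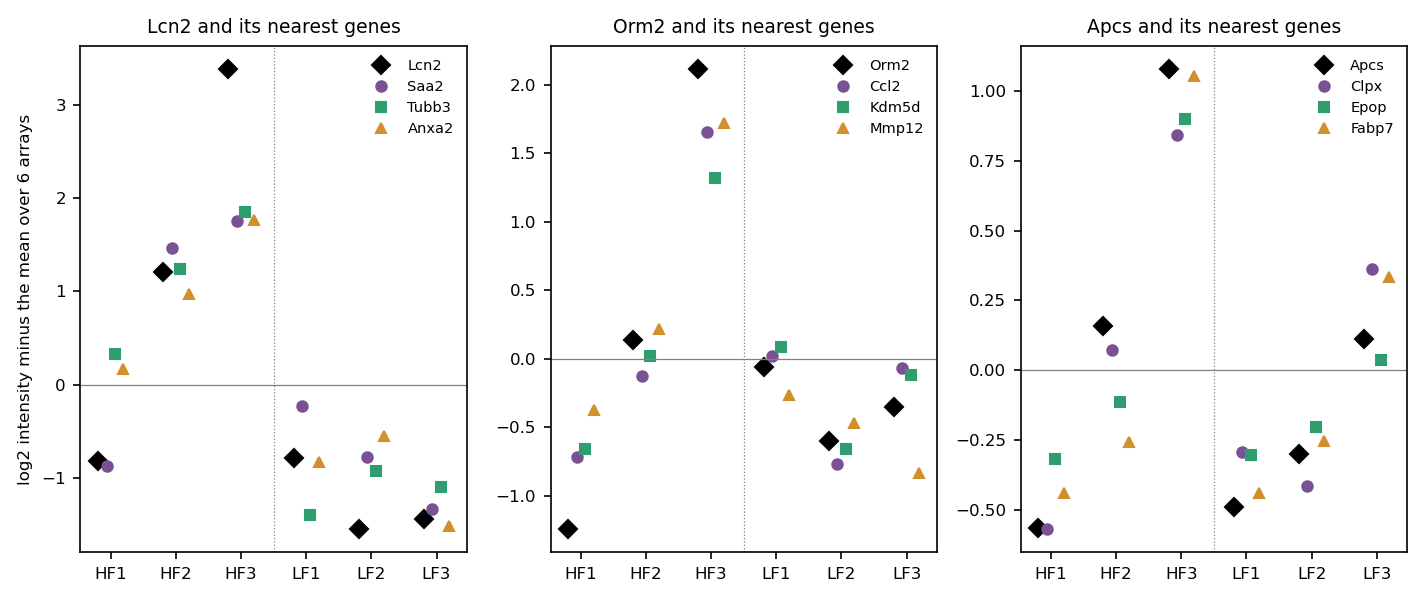
Log2 intensity minus its mean over the 6 arrays for Lcn2 (160564_at), Orm2 and Apcs and the 3 genes nearest to each, on HF1 to HF3 and LF1 to LF3. Every gene shown is highest on HF3, and Lcn2 and Saa2 are low on HF1 and high on HF2 and HF3.

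The other acute phase genes were split in direction. Of 20 further genes tested that were taken here as positive acute phase genes, 0 passed in limma. A fold change above 0 was found in 10 and below 0 in 10, the median was -0.003 and HF3 was highest in 10. The list includes Itih1, Itih2 and Mug1, and whether each of its genes rises in inflammation was not checked. The smallest p-values belonged to the hepcidin gene Hamp, the hormone that limits iron export, and to the ceruloplasmin gene Cp, a copper-carrying ferroxidase. Hamp read 3197, 2819 and 2608 on HF1 to HF3 and 4028, 8465 and 7591 on LF1 to LF3 (log2 fold change -1.15 ± 0.25, SE; adjusted p = 0.0947, and 0.00712 without LF1). Cp read 11949, 10378 and 9942 against 8512, 8589 and 7106 (0.42 ± 0.14, SE; adjusted p = 0.359). In neither gene did the diets overlap, and in both HF3 was the lowest of its diet, whereas HF3 led 11 of the 12 members.

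Negative acute phase genes are those whose expression falls in inflammation. Of 10 genes taken here as such, 0 passed in limma and HF3 was highest in 0. Their median log2 fold change was -0.02. The list includes the transferrin receptor gene Tfrc, and whether each of its genes falls in inflammation was not checked. The corticosteroid-binding globulin gene Serpina6 had a log2 fold change of -0.82 ± 0.19 (SE; adjusted p = 0.115) and the apolipoprotein gene Apom one of -1.02 ± 0.26 (SE; adjusted p = 0.180, and 0.0111 without HF1). In both genes every high-fat array lay below every low-fat array. Apom read 3403, 1745 and 1702 on HF1, HF2 and HF3, with HF1 nearest to the low-fat range of 3669 to 5165. Albumin and transthyretin, chosen for mention after their values were seen, had log2 fold changes of 0.07 ± 0.19 and -0.04 ± 0.14 (SE).

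Of 33 tested genes of the cytokine pathways that drive the group, 1 fell, 0 rose and 32 did not pass, with a median of -0.03. The gene that fell was Lifr, a receptor subunit for leukaemia inhibitory factor and related cytokines of the interleukin-6 family. It read 3306, 2293 and 2080 on HF1 to HF3 and 6228, 7868 and 6439 on LF1 to LF3 (log2 fold change -1.44 ± 0.18, SE; adjusted p = 0.00965). The diets did not overlap. The adjusted p was 0.0515 without HF2, 0.0561 without LF2, 0.0686 without the trend of the variance and 0.183 without the filter. The cytokine genes Il6 and Il1b lay at or under the floor on all 6 arrays. Of the 7 measured genes of heme and iron scavenging, 0 passed, with Hamp and Cp again the smallest p-values and a median of 0.12.

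Markers of other cells were summed for comparison with the order of the members. The summed intensity of 17 macrophage markers was 15381, 13961 and 17248 on HF1, HF2 and HF3 and 14002, 10866 and 10553 on LF1, LF2 and LF3, with HF3 highest. Of the 15 tested, 0 passed in limma and 13 had a fold change above 0, and the smallest p-values were those of Mpeg1 (log2 fold change 0.89 ± 0.18, SE; adjusted p = 0.0742, and 0.0297 without HF1) and Tyrobp (0.67 ± 0.22, SE; adjusted p = 0.353). The part of macrophages in the members' order was not tested. Lcn2 is also a granule protein of neutrophils. The summed intensity of 14 neutrophil markers was 1885, 1872 and 2020 on HF1 to HF3 and 1949, 1775 and 1737 on LF1 to LF3. Of the 14, S100a9, Ngp, Mmp8 and Mmp9 lay at or under the floor on all 6 arrays, while Camp, Elane, Cxcr2, Csf3r and Ly6g lay above it on all 6. Of 8 tested markers 0 passed in limma, and the part of neutrophils in the members' order was not tested. Ltf and Elane had the smallest p-values of that list, with log2 fold changes of -0.60 ± 0.35 and 0.31 ± 0.22 (SE).

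The summed intensity of 11 hepatocyte markers was 209449, 177345 and 162981 on HF1 to HF3 and 205580, 200302 and 174156 on LF1 to LF3. It was lowest on HF3 and, within the low-fat diet, on LF3. The brightest genes, such as albumin, weigh most in this sum. In 3 of the 11, Fga, Fgb and Hnf4a, HF3 was instead the highest of its diet. This list shares Fga and Fgb with the positive acute phase genes above, and albumin, transthyretin and Ahsg with the negative ones. Of these 11 markers 0 passed, and Tat and Cps1 had log2 fold changes of -0.79 ± 0.16 and -0.21 ± 0.18 (SE; adjusted p = 0.0742 and 0.830). Tat passed with all arrays after quantile normalization, with the floor at the 50th percentile, with the filter on all 6 arrays and with the robust fit (limma adjusted p = 0.0394, 0.0440, 0.0471 and 0.0432), and also without HF1 (0.0265). The 7 pancreatic acinar markers would mark any pancreas carried over with liver, which was not tested. They summed to 4561, 12785 and 2257 on HF1 to HF3 and 3335, 7348 and 2267 on LF1 to LF3, highest on HF2 and lowest on HF3. Among them Pnliprp1 and Cel had adjusted p-values of 0.827 and 0.848, and 0 of 7 passed. The 7 endothelial markers summed to between 4064 and 5001 on the 6 arrays, highest on HF3, with 0 called (Kdr and Lyve1, adjusted p = 0.805 and 0.815). The 5 adipocyte markers summed to between 725 and 1753, with 0 of 4 called. Among these, Cidec, a lipid droplet gene that fatty liver also expresses, read 139, 351 and 320 on HF1 to HF3 and 12.8, 8.3 and 6.7 on LF1 to LF3. All its low-fat values lay under the floor, so that it entered the test only through the high-fat arrays and its fold depends on the floor. Its log2 fold change was 1.86 (limma adjusted p = 0.0606) with the floor used and 3.80 (0.0105) with the floor at the 10th percentile. It also passed with an added constant, quantile normalization and a common median (0.0135, 0.0457 and 0.0451), and it could not be tested without any 1 of the high-fat arrays. Lep had a log2 fold change of 0.26 ± 0.23 (SE; adjusted p = 0.833).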

How the data were processed

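The deposited table gives 1 linear intensity per probe set and array. The software and background correction were not given in the sources used here. Trimmed means show that the authors scaled whole arrays (they agreed to a ratio of 1.001). Values under the pooled 30th percentile, 68.9, were set to it and log2 was taken. Probe sets with at least 3 of 6 arrays above it were kept, 66 control probe sets were left out, and 8950 were fitted with limma 3.58.1 in R 4.3.3 (lmFit, eBayes with a trend, two-sided, Benjamini-Hochberg over all 8950, threshold 0.05). Folds between the diets are ratios of the geometric means of the floored intensities. The code was tested on simulated data.

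The annotation gave 1 symbol to 10855 probe sets, several to 396 and none to 1237. Lists tested the single-gene probe set of each gene with the highest mean log2 value, summed levels over that with the highest mean intensity, and named the genes past the threshold (at most 4) or otherwise the 2 with the smallest p. Nearest genes were sought for members spanning at least 1 log2 unit. The members and lists were chosen with earlier results of these data known. Number of arrays limits the precision.

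Alternatives were quantile or common-median scaling, floors at the 10th and 50th percentile, the floor value as an added constant, no filter or all 6 arrays, no trend, a robust variance prior, weights per array, a block for the replicate number, leaving out each array, and a threshold of 0.10. Leaving out both arrays numbered 3 was chosen after seeing the data.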

Additional observations from a re-analysis of the deposited data

How the results depend on the processing

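With all arrays kept, the 12 acute phase probe sets kept their direction and missed the threshold in 130 of 130 refits; Lcn2 (160564_at) could not be tested with the floor at the 50th percentile or the filter on all 6 arrays. With 1 array left out, between 0 and 1 member passed, the 1 being Lcn2 (160564_at) without HF1. Over these refits the log2 fold change ran from -0.22 to 1.47 for Orm2, from -0.17 to 0.032 for Lcn2 (161684_r_at) and from -0.0037 to 0.16 for Cd14, and these changed sign (Cd14 at -0.0030 without HF3). Without both arrays numbered 3, it changed sign for Orm2 (-0.23) and Hpx (98116_at, -0.0060). Of other named genes, with 1 array left out, it ran from -0.011 to 0.48 for Lep, -0.15 to 1.04 for Ccl2, -0.090 to 0.90 for Kdm5d, -0.13 to 0.57 for Clpx, -0.061 to 0.55 for Epop and -0.23 to 0.52 for Fabp7, and without both arrays numbered 3 Lep and Ccl2 were at -7.93e-04 and -0.048. The count over all probe sets, 74, was 120 at a threshold of 0.10, 8 without a filter, 20 without the trend, 38 without both arrays numbered 3 and 26 to 75 with 1 array left out. Apart from fewer arrays or another threshold, the cause was not tested. The replicate numbers were not shown to pair the arrays: deviations of same-numbered arrays correlated with r = 0.07, 0.11 and 0.31, and HF1 and LF2 correlated best with an array of another number. With the replicate block 103 probe sets and 0 members passed, and Serpina6 and Apom passed (adjusted p = 0.00748 and 0.0206).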
